A study of Mus musculus with 10 samples.

Results

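Peaks of the aryl hydrocarbon receptor (AHR) at the 4 mouse Hox gene clusters were examined in colon organoids. The genes were 38 Hox genes of clusters A to D, out of 21938 protein-coding genes of the annotation, and every peak that touched one of their bodies or the 10 kb on either side was taken. This gave 36 of the 123652 peaks in the wild type (WT) list and 0 of the 1931 peaks in the AHR knockout (AHR KO) list. The genes were selected on peak scores of the WT list, in which a strong peak near Hoxb8 stood out, so the scores below are a description and not a test. At the 10 kb limit, the farthest peak inside lay 9.53 kb from the Hoxb1 body with a score of 4.13, and the nearest one outside lay 10.6 kb from the same gene with a score of 5.65.

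The organoids, epithelial cultures grown from colon stem cells, were kept in WENR medium, which contains Wnt3a and holds them in a stem-like state. All of them, WT and AHR KO alike, were given FICZ, an AHR ligand, at 5 nM for 1 h before chromatin immunoprecipitation with sequencing (ChIP-seq), so no culture without ligand was compared. The WT group had 4 AHR ChIP libraries with 4 input libraries of chromatin that had not gone through the antibody step, and the AHR KO group had 1 of each. The labels do not say how many AHR KO cultures those libraries came from, and the methods speak of biological replicates of both genotypes. The study's methods grew organoids from colon crypts of WT and of Vil-Cre Ahr fl/fl mice, in which Cre is driven in the gut epithelium, while the labels give the genotype as AHR KO alone. Mouse age is not given in the labels. Each genotype was represented by 1 list of peaks, so the values below have no replicates, and every interval printed covers counting error only. A peak list holds no measure of Ahr itself, so the genotype could not be checked from it.

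Hox genes encode homeodomain transcription factors that give cells their position along the head to tail axis. They lie in clusters in which all genes of a cluster point the same way, and their order on the chromosome mirrors the order in which they act along the body, with the low-numbered paralogous groups in front and group 13 at the rear. In the adult gut, Hox genes remain active in patterns that differ between segments, and group 13 genes mark the hindgut from which the distal colon derives. AHR, after binding a ligand, pairs with ARNT and recognises the short core GCGTG, which reads CACGC on the other strand. The fuller form of the site searched here is TNGCGTG, in which N is any base.

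The sequences below carry the results that follow. Shown are the highest peak of each cluster, the highest peak inside a Hox intron, the single peak under 25% repeat-masked in its central 200 bp, and 1 peak built from a unit of 3 bases. All were read from mm10 (GRCm38) on the plus strand, 5′ to 3′, and capitals mark the AHR core on either strand. The first, at chr11:96278361-96278660, is the 300 bp of the peak between Hoxb9 and Hoxb8 that hold the most cores. The others are the central 200 bp of their peaks, or the whole peak where it was shorter: chr6:52261579-52261778 before Hoxa13, chr11:96329614-96329813 in an intron of Hoxb3, chr2:74711494-74711693 before Hoxd3 and Hoxd4, chr15:102961181-102961380 between Hoxc11 and Hoxc10, chr11:96290370-96290569 between Hoxb7 and Hoxb6, and chr11:96377788-96377973 past Hoxb1.
Hoxb9 to Hoxb8 peak: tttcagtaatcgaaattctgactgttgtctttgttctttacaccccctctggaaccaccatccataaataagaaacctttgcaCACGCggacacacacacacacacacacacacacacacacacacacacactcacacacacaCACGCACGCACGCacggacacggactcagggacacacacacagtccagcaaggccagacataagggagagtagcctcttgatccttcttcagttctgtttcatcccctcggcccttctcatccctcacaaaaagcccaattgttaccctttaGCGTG
Hoxa13 peak: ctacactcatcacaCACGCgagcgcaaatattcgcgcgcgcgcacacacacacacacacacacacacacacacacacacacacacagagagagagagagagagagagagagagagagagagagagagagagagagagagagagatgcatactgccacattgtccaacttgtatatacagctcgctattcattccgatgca
Hoxb3 intron peak: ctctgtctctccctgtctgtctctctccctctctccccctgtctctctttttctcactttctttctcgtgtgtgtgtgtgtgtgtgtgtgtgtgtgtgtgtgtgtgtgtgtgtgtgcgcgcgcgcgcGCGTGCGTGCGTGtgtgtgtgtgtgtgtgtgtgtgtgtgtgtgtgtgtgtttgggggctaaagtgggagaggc
Hoxd3 and Hoxd4 peak: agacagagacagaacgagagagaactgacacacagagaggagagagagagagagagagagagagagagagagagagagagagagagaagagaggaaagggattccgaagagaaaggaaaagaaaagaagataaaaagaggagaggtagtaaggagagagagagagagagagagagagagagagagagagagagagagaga
Hoxc11 to Hoxc10 peak: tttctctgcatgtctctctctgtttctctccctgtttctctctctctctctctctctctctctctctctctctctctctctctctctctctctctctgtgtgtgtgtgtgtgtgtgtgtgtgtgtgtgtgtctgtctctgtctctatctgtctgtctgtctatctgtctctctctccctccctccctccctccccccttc
Hoxb7 to Hoxb6 peak: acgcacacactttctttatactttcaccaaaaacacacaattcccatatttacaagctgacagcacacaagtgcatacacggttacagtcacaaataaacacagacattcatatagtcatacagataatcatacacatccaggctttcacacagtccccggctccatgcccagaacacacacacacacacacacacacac
Hoxb1 downstream peak: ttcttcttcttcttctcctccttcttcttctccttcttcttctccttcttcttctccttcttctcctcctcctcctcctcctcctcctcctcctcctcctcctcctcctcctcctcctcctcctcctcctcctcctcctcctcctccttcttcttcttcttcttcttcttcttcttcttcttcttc
Long unbroken repeats of CA (TG on the other strand) or GA (TC) are visible in the first 6, and the last is made of repeated units of 3 bases. Cores are present in the first 3, where several of them stand at the edge of the CA repeat.

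Scores are fold enrichments that the authors' peak caller gave for each peak, the ChIP fragments plus 1 over the expected background plus 1. The strong peak lay at chr11:96278155-96278669, was 515 bp wide and had a score of 32.2, which placed it at rank 10 of all WT peaks. Its pileup was 96 fragments, where the WT background, read from the spacing of the scores, was 2.01 fragments. Distances to genes, here and for the peaks below, run from a peak's midpoint. The peak lay between genes, 1817 bp past the end of Hoxb9, 3493 bp before the start of Hoxb8 and 4551 bp upstream of the Hoxb8 coding start. Hoxb8 acts in the trunk and in blood cell progenitors, and its neighbour Hoxb9 acts in the thoracic region. The whole peak held 5 cores and 1 copy of TNGCGTG, and all of these are in the 300 bp shown. Its longest CA run was 42 bp, and 33.5% of its central 200 bp was repeat-masked. Among the 10 WT peaks with this score or more, another 1 was overlapped by an AHR KO peak.

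Hoxb8 had 5 WT peaks within 10 kb, of which this was by far the highest. The peak on its Hoxb9 side, 573 bp past the end of Hoxb9, scored 5.02. On the other side of Hoxb8 lay peaks of 6.31, 6.15 and 7.75, the first of them 400 bp past the end of Hoxb8. The WT list as a whole had a median of 5.32 with quartiles of 4.53 and 5.98, so 1 of these 4 lay below that median and 3 above the upper quartile.

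The second highest Hox peak scored 10.97 at chr6:52261565-52261793 and ranked 716, so the Hoxb8 peak was 2.94 times as high. It lay 799 bp upstream of Hoxa13, a group 13 gene that patterns the hindgut, limb ends and genital tract, with a pileup of 32 fragments. It was the sole Hox peak with TNGCGTG in its central 200 bp. A CA run of 44 bp and a GA run of 59 bp adjoin in it. The third, at chr11:96329545-96329882 in an intron of Hoxb3, a gene of the hindbrain and neck region, scored 9.45 and held 3 overlapping cores inside a CA repeat.

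The highest Hoxd peak, at chr2:74711361-74711826, scored 8.06. Its midpoint lay 333 bp before the annotated start of Hoxd3 and inside the long noncoding gene Hoxd3os1. The start of the 17.2 kb Hoxd4 gene model lies right beside that of Hoxd3, but the nearest coding start was that of Hoxd8, at 5500 bp. The peak held a GA run of 49 bp, a CA run of 45 bp and 3 cores outside its centre. The highest Hoxc peak, at chr15:102961157-102961404, scored 7.64 and lay 3573 bp past Hoxc11 and 5515 bp before Hoxc10, genes of the lumbar region and hindlimb. It held a GA run of 61 bp and a CA run of 35 bp and no core. A Hoxa peak at chr6:52200346-52200687, in an exon of a Hoxa3 transcript and 1237 bp past the end of Hoxa5, reached the same score as the highest Hoxd peak and held 2 cores and 13 CpG dinucleotides in its central 200 bp.

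Scores of Hox peaks tended to lie above those of the list. Their median was 5.98, with quartiles of 5.65 and 7.06 and a range from 4.03 to 32.2, and 28 of the 36 lay above the list median. In the top 10% of WT scores, from 7.14 upwards, there were 9 of the 36. Pileups could be read for the 21 Hox peaks on the genome-wide background, and they ran from 13 to 96 fragments with a median of 17, against 16 over all 63828 such WT peaks. Their median width of 224.5 bp was close to the 227 bp of the list. Across the 36 peaks the score rose with width (Spearman rho 0.64) and with CpG number (rho 0.51) and had little relation to the masked share (rho -0.041). These values are descriptions over peaks that share 1 list and its depth. The rho values were not computed over all WT peaks, so whether they are particular to the Hox peaks was not tested.

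**Figure D1:**
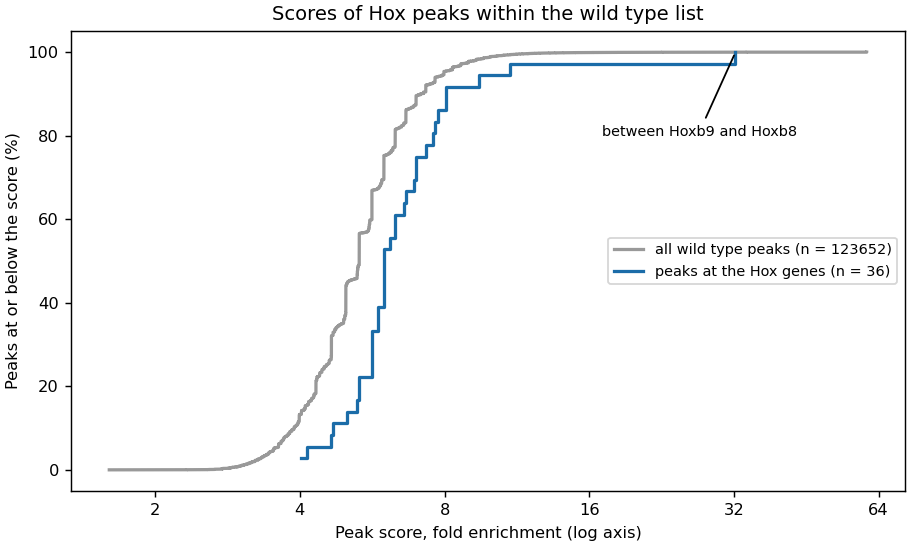
Cumulative share of peaks (vertical axis, percent) at or below each score (horizontal axis, fold enrichment, log axis) for the 36 Hox peaks and all 123652 WT peaks. The Hox curve lies to the right of the list over most of its length, with medians of 5.98 and 5.32, and its last step is the peak between Hoxb9 and Hoxb8 at 32.2.

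The peaks were spread over the clusters unevenly. Hoxb on chromosome 11 had 13 peaks, Hoxc on chromosome 15 had 10, Hoxa on chromosome 6 had 9 and Hoxd on chromosome 2 had 4. Per Mb of the sequence within 10 kb of a Hox gene this came to 92.9 in Hoxb (95% Poisson interval 49.5 to 159), 76.0 in Hoxa (34.7 to 144), 73.7 in Hoxc (35.3 to 135) and 34.2 in Hoxd (9.33 to 87.7). The intervals of the 4 clusters overlap. Over the 511 kb of all clusters the density was 70.5 per Mb (49.3 to 97.5), 1.51 times the 46.6 per Mb of the whole genome. No test was made of this ratio.

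In Hoxa the peaks ran from the Hoxa3 intron to 4152 bp before Hoxa13, and a stretch of 23.1 kb around Hoxa9 and Hoxa10 had none. In Hoxb, 6 of the 13 peaks lay between the end of Hoxb9 and Hoxb5, the middle of the cluster, where genes of the trunk sit. The other Hoxb peaks lay before Hoxb9, around Hoxb4 and Hoxb3, and around Hoxb1, with 29.4 kb around Hoxb2 free of peaks. Hoxb13, which stands apart from the rest of its cluster and is active in the distal colon and prostate, had none within 10 kb, and its nearest lay 13786 bp upstream of its coding start with a score of 5.65.

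In Hoxc the scores ran from 5.65 to 7.64, and the longest stretch without a peak was 31.9 kb around Hoxc10 and Hoxc9. In Hoxd there was no peak over 53.3 kb that held Hoxd13, Hoxd12, Hoxd11, Hoxd10, Hoxd9 and Hoxd8, the genes used in limbs and hindgut. On the Hoxd13 side that stretch was cut at the 10 kb limit and not at a peak, so its length is a lower bound. All 4 Hoxd peaks lay on the Hoxd1 side of that stretch, and 3 of them had the same score of 5.98.

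**Figure D2:**
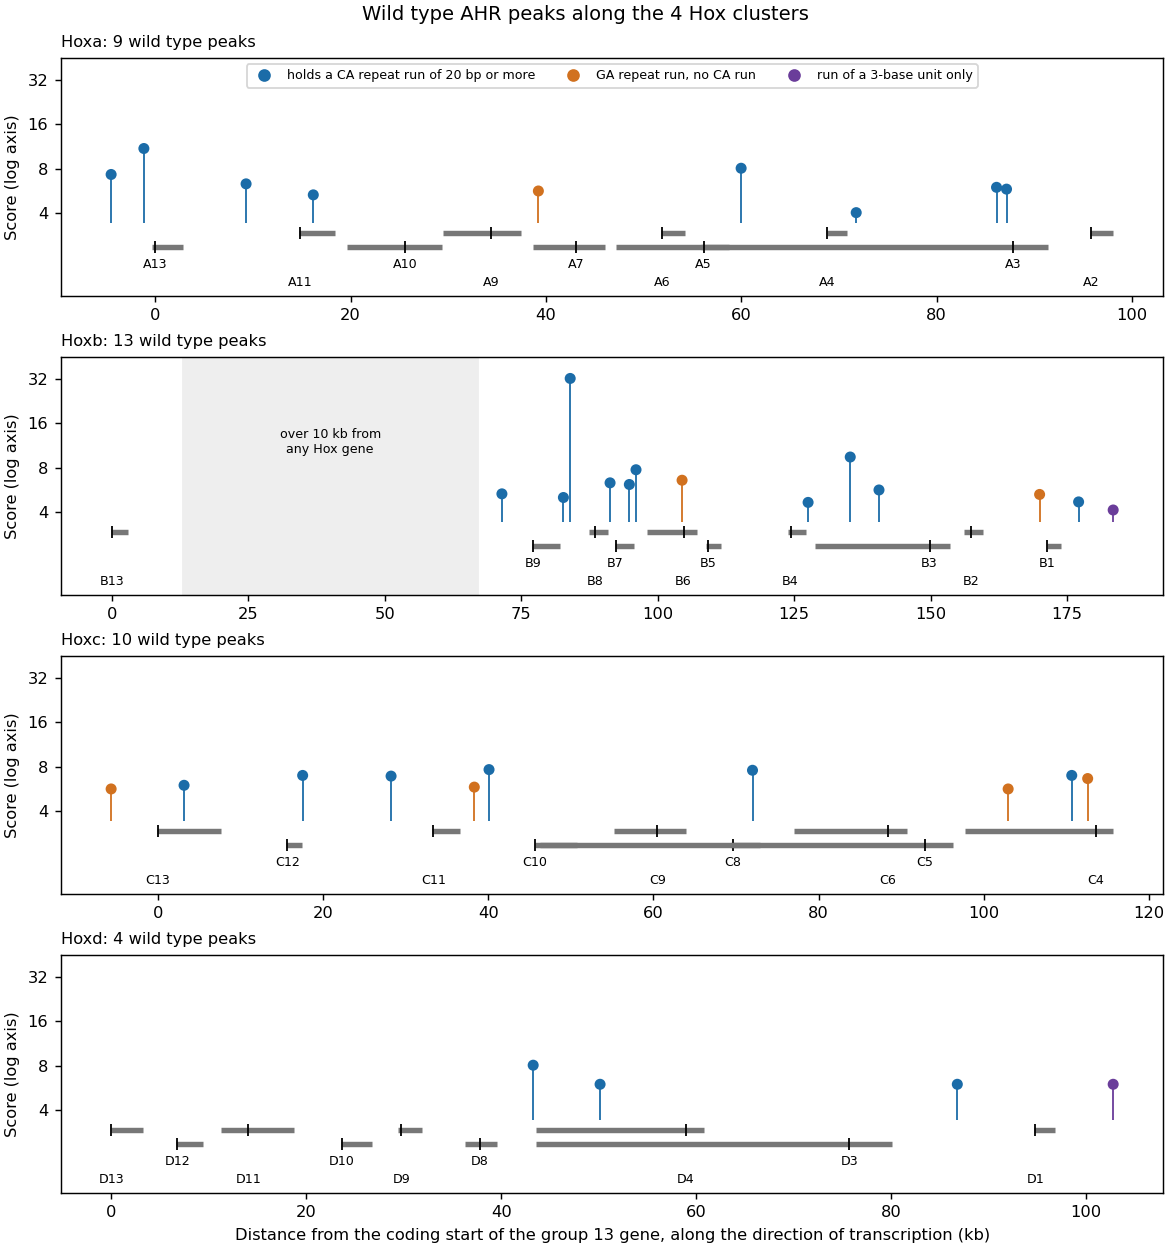
Position of each WT peak (horizontal axis, kb from the coding start of the group 13 gene in the direction of transcription) and its score (vertical axis, fold enrichment, log axis) in the 4 clusters. Grey bars are gene bodies with a tick at the coding start, the shaded stretch lies over 10 kb from any Hox gene, and colours give the kind of repeat run in the peak. The peak between Hoxb9 and Hoxb8 stands at 32.2 above all others, and the left part of Hoxd has no peak.

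Counted by gene, 31 of the 38 Hox genes had a WT peak in the body or within 10 kb, against 78.3% of all protein-coding genes under the same rule. Within the gene body alone it was 13 of the 38, against 49.7%. Hox genes are short, with a median of 3.50 kb against 17.4 kb over all protein-coding genes. A peak in the top 10% of scores lay in or within 10 kb of 20 Hox genes, against 23% of all genes. Since the genes of a cluster stand close together, 23 of the 36 peaks counted for more than 1 gene, and the strong peak alone counted for Hoxb9, Hoxb8 and Hoxb7. These gene counts are therefore not independent of each other.

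The 7 genes without a peak were Hoxb2, Hoxb13, Hoxd9, Hoxd10, Hoxd11, Hoxd12 and Hoxd13. By paralogous group, 10 of 11 genes of groups 1 to 4, which pattern the hindbrain and neck, had a peak. All 11 genes of groups 5 to 8 of the trunk had one. Of groups 9 to 13 of the rear, 10 of 16 had one, and 5 of the 6 missing were the Hoxd genes named above. The number of peaks per gene was highest for Hoxb7 with 6, followed by Hoxa3, a gene model of 44.3 kb, and Hoxb8 with 5 each. The lowest best score was 5.27 at Hoxb1, a gene of the hindbrain.

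**Figure D3:**
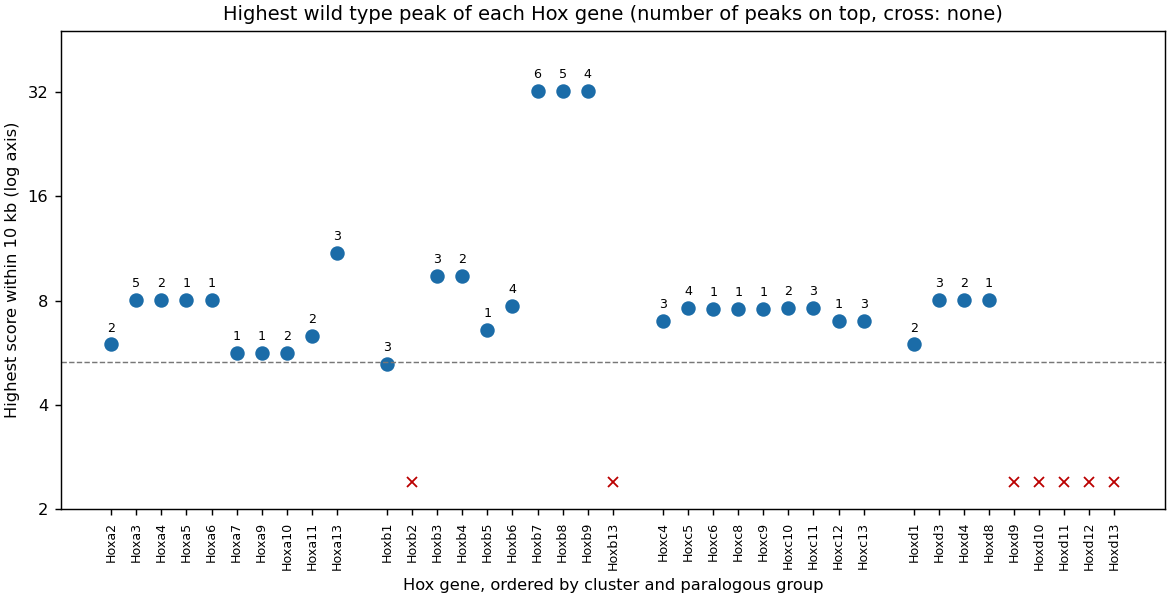
Score of the highest WT peak in or within 10 kb of each of the 38 Hox genes (vertical axis, fold enrichment, log axis), by cluster and paralogous group, with the number of such peaks above each point and a cross for none. The dashed line is the list median of 5.32, and Hoxb7, Hoxb8 and Hoxb9 share the peak of 32.2.

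With respect to the genes, 20 of the 36 peaks lay between genes, 14 in introns and 2 in exons. These classes follow the annotated gene models, some of which are long and span other Hox genes, such as Hoxa3 at 44.3 kb and Hoxd3 at 36.5 kb. The peak at chr6:52188605-52188859, for example, counted as in an intron of Hoxa3 but lay 939 bp from Hoxa4. Hox promoters, taken as 1 kb before and 100 bp after each transcript start, held the midpoint of 6 peaks. These were the Hoxa13 peak of 10.97, the Hoxd3 and Hoxd4 peak of 8.06, and peaks at Hoxa7 (5.65), Hoxb7 (6.31), Hoxb6 (6.58) and Hoxc4 (6.65). The Hoxb6 peak, 270 bp upstream of the coding start, was the closest of all 36 to a coding start. The 3 at Hoxa7, Hoxb6 and Hoxc4 were at internal starts of longer gene models. The Hoxd3 and Hoxd4 peak counted for Hoxd4 through the start of its 17.2 kb gene model, far from the Hoxd4 coding start. Promoters so defined made up 14.5% of the Hox sequence, and 6 of 36 peaks is 16.7% (95% Wilson interval 7.87 to 31.9). Over the whole genome 1.75% of WT peaks lay at promoters of protein-coding genes, which made up 2.21% of the sequence.

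The median distance from a peak's midpoint to the nearest Hox coding start was 4199 bp, with a range from 270 to 12054 bp. Peaks within 2000 bp numbered 9, those from 2000 to 5000 bp numbered 12, those from 5000 to 10000 bp numbered 12, and 3 were farther away. For the 6 microRNA genes in the clusters, gaps were measured from the edge of the gene to the nearest edge of a peak. Mir196a-1 lay closest to a peak, with a gap of 528 bp to the one before Hoxb9 with a score of 5.32. The gaps of the other 5 microRNA genes ran from 4.61 kb for Mir10a to 11.9 kb for Mir196a-2.

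The clusters are among the sequence with the fewest repeats in the mouse genome. Soft-masked bases, those that the genome sequence marks as repeats, made up 13.3% of Hoxa, 15.6% of Hoxd, 16.4% of Hoxc and 18.1% of Hoxb, against 36.4% of the genome. Of 26332 windows of 100 kb, 1.39% were less masked than the 4 clusters in total, at 15.97%. In the 1831 windows from 10 to 20% masked the median was 4 peaks per 100 kb, with quartiles of 3 and 6, the same median as over all windows. Hoxa, Hoxb and Hoxc had 7.60, 9.29 and 7.37 peaks per 100 kb, more than 85.7%, 95.01% and 85.7% of all windows, while Hoxd had 3.42, more than 35.7%.

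**Figure D4:**
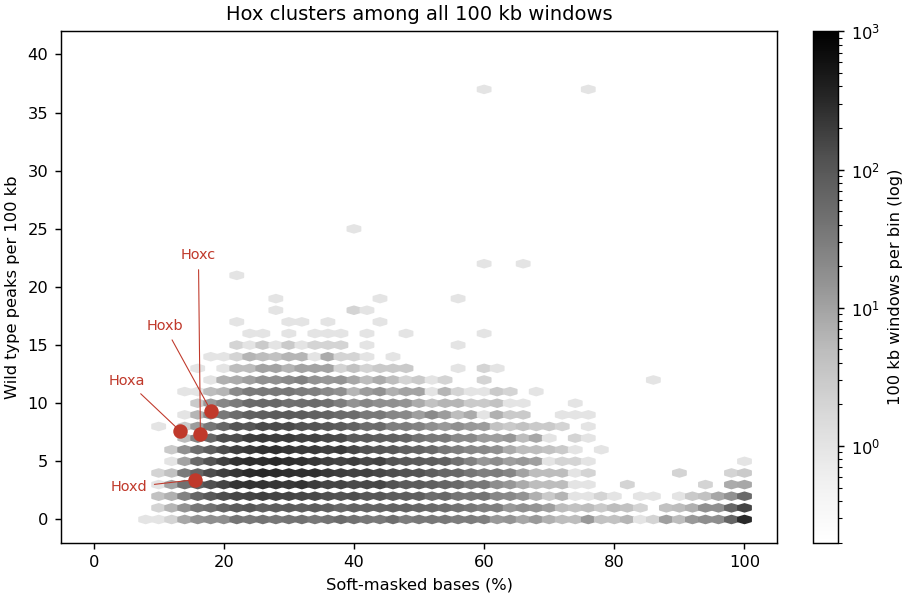
Soft-masked share (horizontal axis, percent) and number of WT peaks (vertical axis, per 100 kb) of 26332 windows of 100 kb, as grey bins by the number of windows, with the 4 Hox clusters as red points. The clusters lie at the left edge, from 13.3 to 18.1% masked, with Hoxa, Hoxb and Hoxc at 7.37 to 9.29 peaks and Hoxd at 3.42.

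Even so, the Hox peaks lay on the repeats that the clusters do contain. Every one of the 36 held a perfect tandem run of at least 20 bp, either of CA, of GA or of a unit of 3 bases. Such a run, or one of a unit of 4, was in 68.0% of all WT peaks. The kinds of run were defined after the sequences had been seen, so these shares describe the peaks and are not a test. A CA run was present in 27 of the 36 (75%, 95% Wilson interval 58.9 to 86.2), against 54.0% of all WT peaks and 56.8% of all AHR KO peaks. A GA run was present in 16 (44.4%, 29.5 to 60.4), against 19.0% of all WT peaks and 4.48% of all AHR KO peaks. Both kinds were present in 9 peaks, among them those at Hoxa13, at Hoxd3 and Hoxd4 and between Hoxc11 and Hoxc10.

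The 9 Hox peaks with no CA run comprised 7 with a GA run and 2 with a unit of 3 alone, the one past Hoxb1 with a score of 4.13 and the one 5935 bp past Hoxd1 with 5.98. By cluster, a CA run was in 8 of 9 peaks in Hoxa, 10 of 13 in Hoxb, 6 of 10 in Hoxc and 3 of 4 in Hoxd. By the looser measure of at least 3 copies of CACACA or TGTGTG in the central 200 bp, 26 of the 36 (72.2%, 56.0 to 84.2) were CA repeats, against 57.3% of all WT and 83.7% of all AHR KO peaks.

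Masked sequence made up less of the Hox peaks than of the list. At least 50% of the central 200 bp was masked in 18 of 36 peaks (50%, 34.5 to 65.5), against 86.0% of all WT peaks and 94.3% of all AHR KO peaks. Of the bases in Hox peaks 52.3% were masked, against 78.8% in all peaks. Hoxa had the least masked peaks, with 2 of 9 at 50% or more, then Hoxb with 6 of 13, Hoxc with 7 of 10 and Hoxd with 3 of 4. In the central 200 bp a single peak was under 25% masked, at 24.5%. It lay at chr11:96290220-96290719 between Hoxb7 and Hoxb6, with a score of 7.75. It was 500 bp wide and 30.2% masked as a whole, and CA runs of 40 and 46 bp lay on either side of its centre. Over all WT peaks 0.454% were under 25% masked in the central 200 bp. Taken over the whole peak, 3 others were under 25% masked: the Hoxa3 exon peak at 19.9%, the peak between Hoxb9 and Hoxb8 at 20.2%, and a Hoxd peak 7888 bp before Hoxd1 at 23.7%. The share of all WT peaks by this whole-peak measure was not computed, and the 0.454% is not its counterpart.

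Seen from the sequence, WT peaks covered 5.995% of the masked and 1.04% of the unmasked Hox bases, against 2.70% and 0.415% in the genome. The Hox sequence held 65 CA runs of at least 20 bp, and 34 of them (52.3%, 40.4 to 63.98) lay in a peak, against 31.0% of 275981 such runs in the genome. The shares were 8 of 12 in Hoxa, 12 of 21 in Hoxb, 9 of 21 in Hoxc and 5 of 11 in Hoxd. Short CA runs of 20 to 30 bp lay in a peak in 3 of 12 cases, those of 30 to 40 bp in 13 of 22, those of 40 to 50 bp in 13 of 24 and longer ones in 5 of 7. The 23.1 kb around Hoxa9 and Hoxa10 that had no peak also held 0 CA and 0 GA runs. In the 53.3 kb of Hoxd without a peak there were 3 CA and 5 GA runs, or 56.3 and 93.8 per Mb, and the stretch around Hoxb2 held 2 and 3. That around Hoxc10 and Hoxc9 held 3 CA and 5 GA runs, or 94.0 and 157 per Mb, and that around Hoxb13 held 3 and 2, or 130 and 86.5 per Mb.

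GA runs were denser in the Hox sequence than in the genome, at 121 against 46.7 per Mb. Of the 62 in the clusters 20 lay in a peak (32.3%, 21.95 to 44.6), against 22.7% in the genome. CA runs had similar densities, at 127 and 104 per Mb. How reads that fit several repeats were placed is not given in the sources used here, and its part in these counts was not tested.

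AHR words were denser in the Hox sequence than in the genome, while the share of them in a peak was small and close to that of the genome. The clusters are rich in CpG, with 24.1 per kb against 8.26 in the genome, and held 141 copies of TNGCGTG per Mb against 68.4, and 802 cores per Mb against 398. Of the 72 copies of TNGCGTG in the clusters, 2 lay in a peak (2.78%, 0.765 to 9.57), against 2.75% in the genome. Those 2 are in the peaks between Hoxb9 and Hoxb8 and at Hoxa13, the 2 highest of the clusters. Of the 410 cores, 16 lay in a peak (3.90%, 2.42 to 6.24), against 4.73%. Hoxc held 72 cores with 0 in a peak, which allows a share of up to 4.17% by the limit of 3 counts and 5.07% by the Wilson interval.

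**Figure D5:**
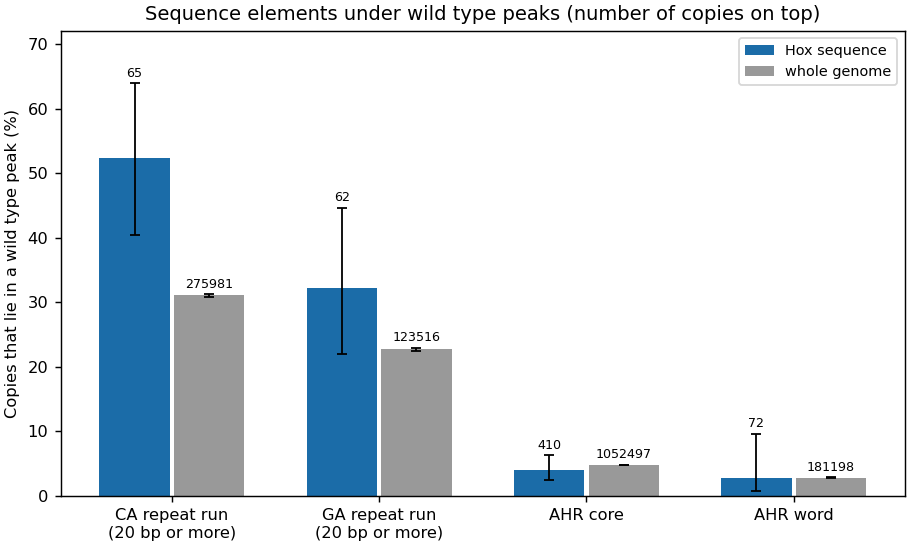
Share of CA runs, GA runs, AHR cores (GCGTG) and the fuller AHR word (TNGCGTG) that lie in a WT peak (vertical axis, percent), in the Hox sequence and in the whole genome, with 95% Wilson intervals and the number of copies above each bar. For CA runs 52.3% against 31.0% lay in a peak, and for the AHR word 2.78% against 2.75%.

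In the central 200 bp, TNGCGTG was present in 1 of 36 Hox peaks (2.78%, 0.492 to 14.2), against 2.84% of all WT peaks, and GCGTG in 5 (13.9%, 6.08 to 28.7), against 17.7%. The 5 were those at Hoxa13, between Hoxb9 and Hoxb8, in the Hoxb3 intron, in the Hoxa3 exon, and 355 bp past Hoxb4. The words of 2 other factors were counted in the same windows. The AP-1 word TGASTCA, where S is C or G, was in 0 of 36, which allows a share of up to 8.33%, against 1.28% of all WT peaks. The TEAD word GGAATG was in 3 (8.33%, 2.87 to 21.8), against 7.24%.

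RefSeq promoter windows of GRCm38, which span 250 bp before to 50 bp after a start, were found for 22 of the 38 Hox genes, 24 windows in all. The core was in 9 of them (37.5%), at Hoxa2, Hoxa3, Hoxa5, Hoxa10, Hoxb4, Hoxd1, Hoxd3, Hoxd9 and Hoxd11, against 32.4% of 32851 windows of the genome. TNGCGTG was in 2 (8.33%), at Hoxa10 and Hoxd3, against 5.07%. A WT peak overlapped 1 of the 24 windows, that of Hoxd3, against 0.962% of all windows, and its copy of TNGCGTG lay outside the peak. The window of Hoxd4, at chr2:74721728-74722027, had no peak.

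No AHR KO peak lay in or within 10 kb of any Hox gene, against 4.47% of all protein-coding genes. The AHR KO peak nearest to a Hox peak was 184 kb away, and for the other Hox peaks the distance ran up to 586 kb. So 0 of the 36 WT peaks were overlapped by an AHR KO peak, which allows a share of up to 8.33% by the limit of 3 counts and 9.64% by the Wilson interval, against 1.51% of all WT peaks and 8.92% of those in the top 10%. The AHR KO list also appeared shallower, although its background could be read from just 334 of its 1931 peaks. Over those 334 it was 0.287 fragments, with a lowest pileup of 5 fragments. On that background, which need not hold for the other AHR KO peaks or at the Hox sites, the score of the Hoxb8 peak would be reached at 40.5 fragments and the median Hox score at 6.70. At 33 of the 36 Hox peaks the same score would need more than the lowest AHR KO pileup, and at 3 it would need at least 2 times that pileup. The part of depth in the absence of AHR KO peaks was not tested.

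Genes that work with or beside the Hox clusters were counted in the same way. The 8 genes examined for TALE cofactors, which bind DNA together with Hox proteins (Pbx2, Pbx3, Pbx4, Meis1, Meis2, Meis3, Pknox1 and Pknox2), all had a WT peak, 50 in total. They include long genes, such as Pknox2 at 256 kb with 9 peaks. The highest of their peaks was at Meis2, with a score of 9.97 and 4 cores, and Meis2 also had the sole AHR KO peak, at another place. Of the 2 genes at the ends of the clusters, Evx1 beside Hoxa13 had 1 peak of 4.76 and Evx2 beside Hoxd13 had 0.

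Of the 6 ParaHox genes, sisters of the Hox clusters, 3 had a peak. The highest at Cdx1, a gene of intestinal identity, scored 10.3, and its central 200 bp was fully masked with a CA repeat. At Pdx1, needed for pancreas and duodenum, the highest was 7.64. At Cdx2, the main regulator of intestinal identity, it was 4.98, and the window of that peak was 20.5% masked and held TNGCGTG. Cdx4, Gsx1 and Gsx2 had 0. In all 12 of these 16 genes had a WT peak, beside the 78.3% of all protein-coding genes, and none of their highest peaks exceeded that between Hoxb9 and Hoxb8.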

How the data were processed

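AHR ChIP-seq was carried out on colon organoids after FICZ. The authors aligned single-end reads to mm10 with BWA 0.7.15, marked duplicates with Picard 2.1.1 and called peaks against input with MACS2 2.1.1, versions as in the submitters' processing notes, which also name HOMER 4.8. The deposited values are 1 peak list for all WT cultures together and 1 for the AHR KO, each with a score that, from its values, is a ratio (fold enrichment). The study's methods give an average number of reads per sample, but depth per library was not analysed here. The handling of reads that map to several places and the program behind the soft-masking are not given in the sources used here. Printed starts have 1 added to the deposited ones, which were taken to count from 0.

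Peaks were joined to GENCODE M21 gene bodies and 10 kb on either side by an overlap of 1 bp. Sequence features used GRCm38, chromosomes 1 to 19, X and Y (123366 WT and 1873 AHR KO peaks), in the 200 bp around the midpoint unless stated. Words were counted on both strands. Windows of 100 kb with at least 90% called bases were used. Background depth was read from the step that had the most scores on whole multiples of it, within 0.002 steps (63828 WT and 334 AHR KO peaks). The longest run in a peak counts a cut unit at its end, while runs counted over the Hox sequence and the genome hold whole units. Shares have 95% Wilson intervals and densities exact Poisson intervals. Where nothing was counted, the limit printed is that of 3 counts. No test was made, since neither list has replicates.

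Described in full were the highest peak of each cluster, the peaks near Hoxb8, at Hox promoters, under 25% masked or holding TNGCGTG, and, by counts, 16 genes of cofactors, neighbours and ParaHox genes, after 1 more gene fixed for this group was left out. The microRNA genes, the peak in the Hoxb3 intron, the Hoxa3 exon peak and the unit of 3 were named after their values were seen. The members and lists were chosen with earlier results of these data known. Definitions of repeat runs were made after the sequences had been seen. Scripts used Python 3.11.15, numpy 2.4.6, pandas 2.3.3, scipy 1.17.1 and matplotlib 3.10.9 and were checked on simulated data.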

Additional observations from a re-analysis of the deposited data

How the results depend on the processing

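Of 36 alternative values, 25 stayed within the counting interval or 1.5 times of the reported one and 11 moved. With gene bodies alone there were 17 WT peaks at 13 Hox genes, and with a limit of 50 kb there were 68 peaks. Peaks in the top 10% of WT scores numbered 9, or 17.6 per Mb, at 20 genes, and 12 had at least the AHR KO median score. The share of peaks over the masked limit was 97.2% with a limit of 25% and 25% with 75%. Promoters from 2 kb upstream to 2 kb downstream held 14 peaks, and starts of the gene alone gave 3. For the masked share the peaks and windows stayed the same and the limit alone changed, so that share depends on the limit chosen. The other alternatives that moved take in fewer or more sequence or peaks by their definition. With 0, 2 or 50 kb around the gene bodies, AHR KO peaks remained at 0.

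No paired analysis was possible because each list holds 1 value per peak and none per culture, although WT ChIP and input libraries share culture numbers. Leaving out each culture in turn was not run for the same reason. In the WT list a peak found in 1 culture cannot be told from a peak found in all 4. How far the AHR KO depth limited what could be seen at the 36 sites was not tested.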
